A study of Mus musculus with 6 samples.

Results

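Transcripts that the mouse oocyte makes while it grows and stores for later use were followed in 6 RNA sequencing libraries of cultured mouse ovary. The list held 45 gene symbols taken from known families of maternal effect genes, oocyte NLRP and OAS1 genes, RNA storage factors and genes of meiotic arrest, and 43 of them matched a row of the deposited table of 26329 genes. Zp2os and H1foo had no row under those symbols and were not analysed here as members. In 3 libraries the ovaries had been cultured with DMSO, the solvent (Control), and in the other 3 with ISRIB in DMSO. ISRIB is a small molecule that binds the initiation factor eIF2B and relieves the block on protein synthesis set by the integrated stress response (ISR). Per its title, the study asks whether inhibiting the ISR activates primordial follicles through the mTOR pathway. The design text names newborn ICR mice for the injected animals of the study. For the cultured ovaries the sources used here give no strain, age, dose or length of culture, nor do they say if each replicate was its own animal or culture. The p-values therefore reflect the spread among the 6 libraries alone, some or all of which may be technical.

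Primordial follicles hold a small resting oocyte. Once a follicle is activated its oocyte grows, and it builds up messenger RNAs and proteins that will carry meiosis and the first embryonic divisions, because transcription stops before ovulation. Maternal effect genes are those whose product in the egg is needed by the embryo whatever the embryo's own genotype. Many are controlled after transcription: RNA-binding proteins keep their messages silent with short poly(A) tails, and others later lengthen the tails or remove the messages.

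Levels are given as the FPKM that the authors deposited, in which fragments are divided by gene length and by library size. Differences are ISRIB minus Control on the log2(FPKM + 0.5) scale, positive where ISRIB was higher. The reads behind them could be worked back exactly and came to 34474821 to 38002135 per library. Of the 43 genes, 40 averaged 1 FPKM or more and were tested, and Nlrp4e, Nlrp9c and Oog1 did not reach it. All 14 germ cell markers chosen for comparison and 11 of 13 granulosa markers passed the same filter, so both oocytes and the cells around them were represented. In tissue RNA, fewer cells of a type and less RNA per cell cannot be told apart. The 3 tested genes of the list with the smallest p in ISRIB against Control were Zar1l, Oog3 and Fbxw15, and next among those with an entry in the RefSeq promoter table (GRCm38.p6) was Ooep. These are shown because they had the smallest p among the genes with an entry. Each line gives the 250 bases before the start of transcription in RefSeq, read 5′ to 3′ on the gene's strand. GENCODE places some starts further upstream, so that 137 of the bases shown for Ooep, 12 for Oog3, 5 for Zar1l and 0 for Fbxw15 lie inside the gene as GENCODE annotates it. Capitals mark the letters TAATTG, the core of the element bound by the oocyte homeobox factor NOBOX, or CAGCTG, an E-box, on either strand (CAATTA is TAATTG read on the other strand). The stretch of Zar1l lies at chr5:150518160-150518409, minus strand, Oog3 at chr4:144162652-144162901, minus strand, Fbxw15 at chr9:109568263-109568512, minus strand, and Ooep at chr9:78378589-78378838, minus strand.
Zar1l: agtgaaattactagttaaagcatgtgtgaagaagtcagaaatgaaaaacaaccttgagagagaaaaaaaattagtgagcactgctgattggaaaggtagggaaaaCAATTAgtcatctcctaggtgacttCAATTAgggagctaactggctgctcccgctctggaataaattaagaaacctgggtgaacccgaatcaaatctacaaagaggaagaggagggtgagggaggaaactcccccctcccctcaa
Oog3: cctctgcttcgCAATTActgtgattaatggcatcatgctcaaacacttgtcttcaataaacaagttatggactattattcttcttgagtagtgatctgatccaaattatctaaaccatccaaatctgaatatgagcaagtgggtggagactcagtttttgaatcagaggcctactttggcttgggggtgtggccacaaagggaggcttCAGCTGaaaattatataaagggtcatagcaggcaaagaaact
Fbxw15: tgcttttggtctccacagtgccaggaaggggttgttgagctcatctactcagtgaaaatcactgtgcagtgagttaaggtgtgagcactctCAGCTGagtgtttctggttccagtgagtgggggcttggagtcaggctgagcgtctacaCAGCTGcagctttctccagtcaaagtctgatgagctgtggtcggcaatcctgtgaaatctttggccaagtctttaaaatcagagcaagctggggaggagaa
Ooep: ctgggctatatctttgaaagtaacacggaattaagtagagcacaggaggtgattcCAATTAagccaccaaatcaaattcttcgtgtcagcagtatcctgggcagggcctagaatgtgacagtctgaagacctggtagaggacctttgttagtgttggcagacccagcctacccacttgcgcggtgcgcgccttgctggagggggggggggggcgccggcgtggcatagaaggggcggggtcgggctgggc

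Zar1l held 2 NOBOX elements and no CAGCTG, Oog3 held 1 of each, Fbxw15 held 2 CAGCTG and Ooep held 1 NOBOX element. In the whole windows of the table, which run from 250 bases before to 50 after the start, 36 of the genes had 45 windows, some of them overlapping windows of the same gene. CAGCTG was found in 37.8% of these windows and in 16.3% of all 32851 windows, TAATTG in 17.8% and 8% and TGATTG, the LHX8 element, in 31.1% and 14%. CANNTG, the general E-box, which includes CAGCTG, was in 80% and 72.3%, and TATAAA in 11.1% and 13.6%. Both strands were searched. A match to these letters is a description of the sequence and does not show binding.

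The genes spanned a wide range of levels. Over the 6 libraries, 7 had a mean of at least 100 FPKM, 16 lay between 10 and 100, 17 between 1 and 10 and 3 under 1. Padi6 was the most abundant, ranked 19 of the 12922 genes tested, and took 31.3% of the summed FPKM of the 43. Uchl1 came next. At the low end the reads were few: 12 to 94 for Oog1 in a library, against 76225 to 98017 for Padi6.

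**Figure D1:**
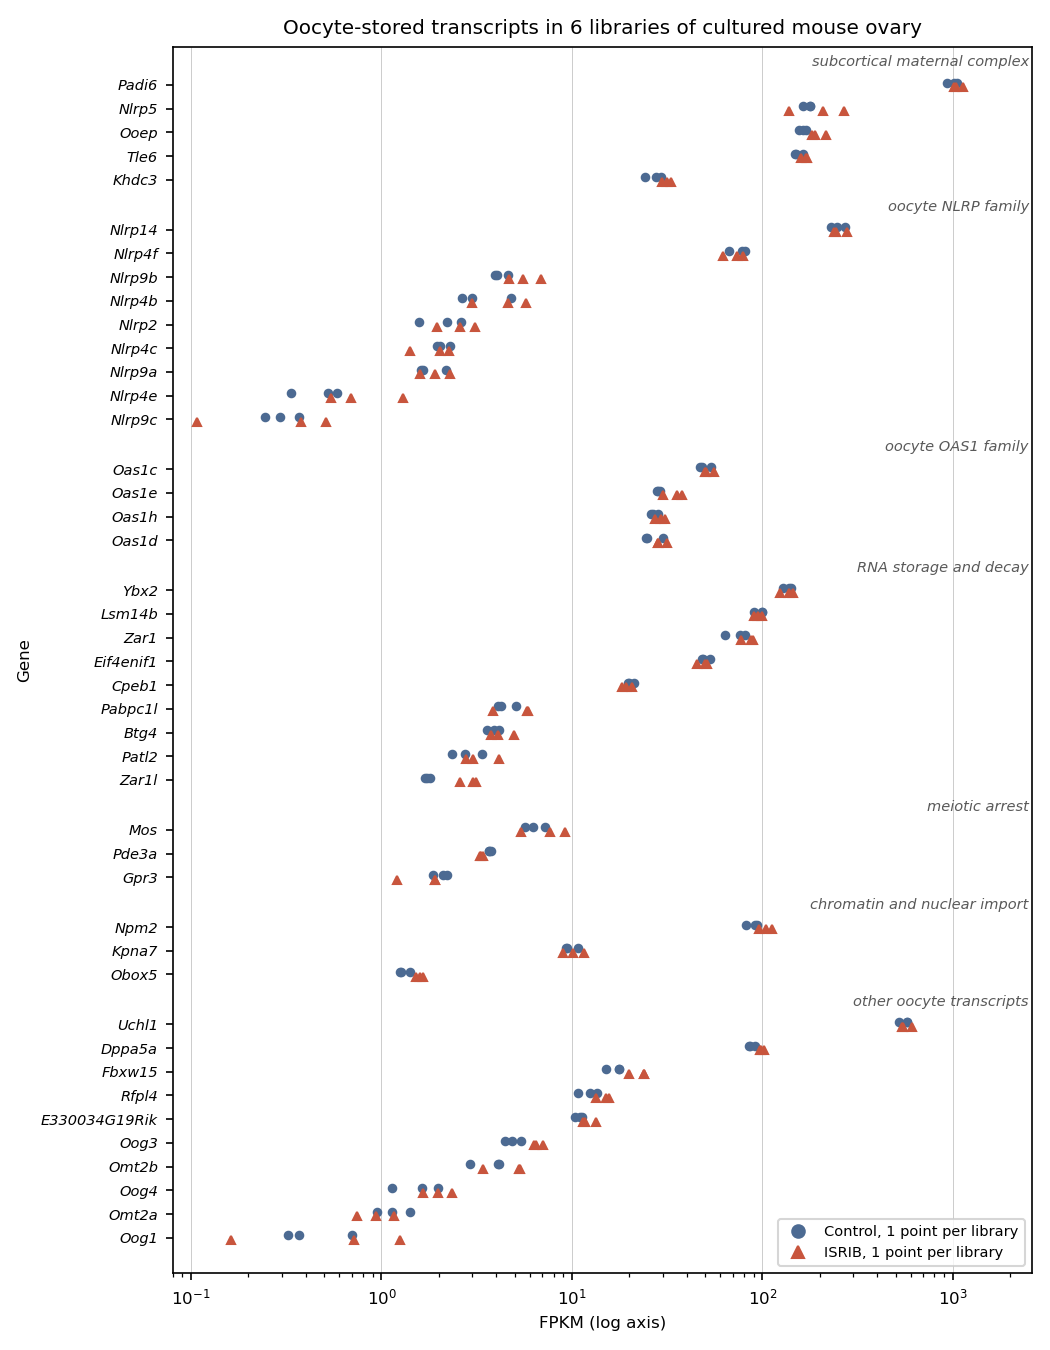
FPKM (log axis) of the 43 genes by role, with a circle for each of the 3 Control libraries and a triangle for each of the 3 ISRIB libraries. The levels run from under 1 FPKM for Oog1 and Nlrp9c to 1127 for Padi6, and for Zar1l, Oog3 and Fbxw15 the triangles lie to the right of all circles.

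None of the 40 tested genes passed the test of ISRIB against Control at a limma adjusted p under 0.05, and of all 12922 genes none did (0%). The smallest adjusted p on the list was 0.0832, for Zar1l. By limma's voom, run on reads recovered from the FPKM, 0 of the 40 passed as well, against 120 of all genes (0.929%). At an unadjusted p under 0.05, 11 of the 40 were higher in ISRIB and 0 lower, where 8.71% and 7.73% of all tested genes were. With voom these were 12 and 1, against 8.06% and 9.25%. The 3 ISRIB libraries all lay above the 3 Control libraries for 11 of the 40 (27.5%), against 10.8% of all tested genes, and all below for 1, against 12.0%. Differences were above 0 for 31 (77.5%), against 51.8% of all tested genes. The median log2 difference was 0.17, beside 0.01 over all tested genes. The list was chosen with earlier results of these data known, so these counts are a description. Single libraries moved them. Without ISRIB replicate 1 there were 17 higher at an unadjusted p under 0.05, against 10.6% of all genes. With fewer libraries more genes of any kind have groups that do not overlap: all ISRIB lay above all Control libraries for 19 of the 40 without ISRIB replicate 1, where 19.6% of all genes did, and for 17 without Control replicate 2, where 14.6% did. Without Control replicate 1 or ISRIB replicate 2, 7 were higher at an unadjusted p under 0.05, against 7.36% and 7.16% of all genes, and the median without ISRIB replicate 2 was 0.08.

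**Figure D2:**
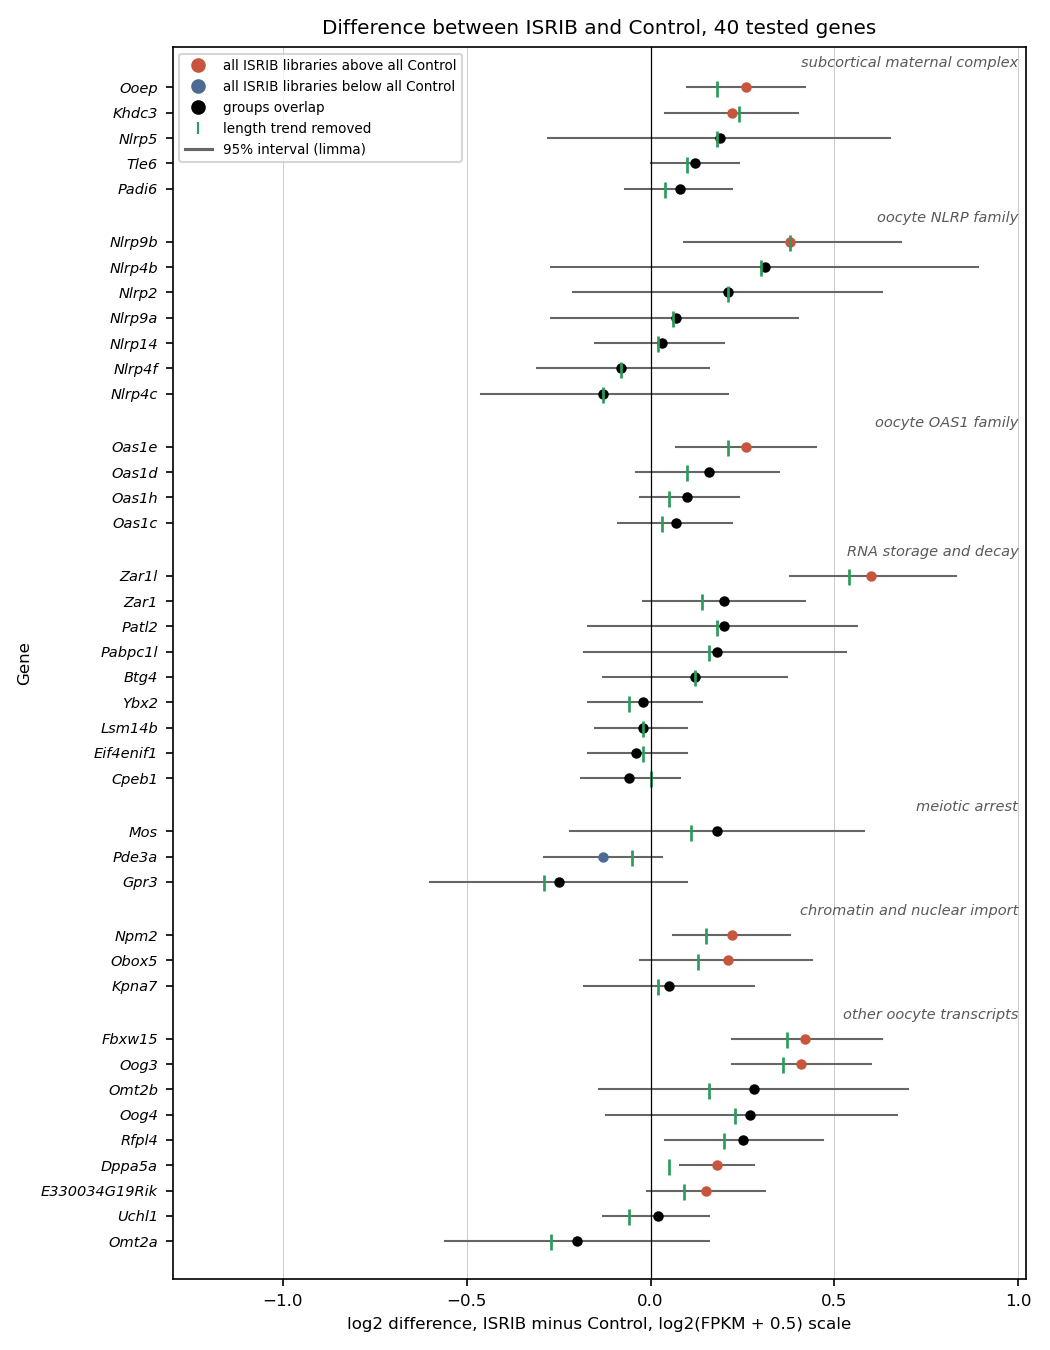
Log2 difference of ISRIB minus Control for the 40 tested genes by role, with 95% intervals from limma, and a green bar for the value after the trend with gene length was removed. Red points (11 genes) have all ISRIB libraries above all Control libraries, the blue point (Pde3a) has all below, and Zar1l stands furthest to the right at 0.60.

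The subcortical maternal complex is a protein assembly under the oocyte membrane that the embryo needs for its first divisions. The 5 genes grouped under it here all had positive differences. Their median was 0.19 (0.18 after the length trend was removed and 0.13 after rescaling to equal FPKM totals, as in TPM). Nlrp4f, grouped below with the NLRP genes, is also a component of the complex and had a log2 difference of −0.08. Ooep, a KH-domain protein of the complex (chromosome 9, 78376109 to 78378725, minus strand, GRCm38), had 156, 170 and 164 FPKM in Control and 188, 216 and 183 in ISRIB. Every ISRIB library lay above every Control library. Its means were 163 ± 7.14 and 196 ± 17.8 (SD, n = 3 each), a log2 difference of 0.26 (SE 0.0675, adjusted p = 0.136). Khdc3, the partner of Ooep also called Filia (chromosome 9, 73101836 to 73104438, plus strand), measured 24.2, 27.5 and 29.5 FPKM in Control and 29.7, 33.2 and 31.6 in ISRIB. Its groups did not overlap, but the highest Control and the lowest ISRIB library were close, and the log2 difference was 0.22 (adjusted p = 0.228). Of the 50-base windows of its longest transcript, 42.8% also occur in Gm20509, a gene that overlaps it on the same strand, so its reads may not be fully its own.

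Padi6, a member of the arginine deiminase family needed for the cytoplasmic lattices of the oocyte (chromosome 4, 140727355 to 140742643, minus strand), had 936, 1056 and 1015 FPKM in Control and 1008, 1127 and 1036 in ISRIB. The groups overlapped, with a log2 difference of 0.08 (95% interval −0.07 to 0.22, adjusted p = 0.574). Nlrp5, also called Mater, the founding maternal effect gene of the complex (chromosome 7, 23385889 to 23441922, plus strand), had 177, 178 and 164 FPKM in Control and 138, 207 and 267 in ISRIB. ISRIB replicate 1 lay below all Control libraries and the other 2 ISRIB libraries above them. The highest value was 1.94 times the lowest in ISRIB and 1.09 times in Control, with 17678 to 34010 reads behind each value, and the spread of its log2 values in ISRIB was larger than that of 98.6% of the tested genes. The log2 difference was 0.19 (95% interval −0.28 to 0.65, adjusted p = 0.685), and −0.03 without ISRIB replicate 3. Tle6, a co-repressor family member of the complex, was named after its values were seen. It had means of 154 ± 8.13 and 167 ± 6.43 FPKM and a log2 difference of 0.12 (adjusted p = 0.301). In Control the levels came in the order Padi6, Nlrp5, Ooep, Tle6 and Khdc3. An order between genes rests on the gene lengths behind the FPKM, which can be far from the GENCODE exon lengths: 4953 against 2050 bases for Khdc3 and 1222 against 2138 for Ooep. The SD ranges of Nlrp5 and Ooep overlapped (173 ± 7.82 and 163 ± 7.14), as did those of Ooep and Tle6.

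**Figure D3:**
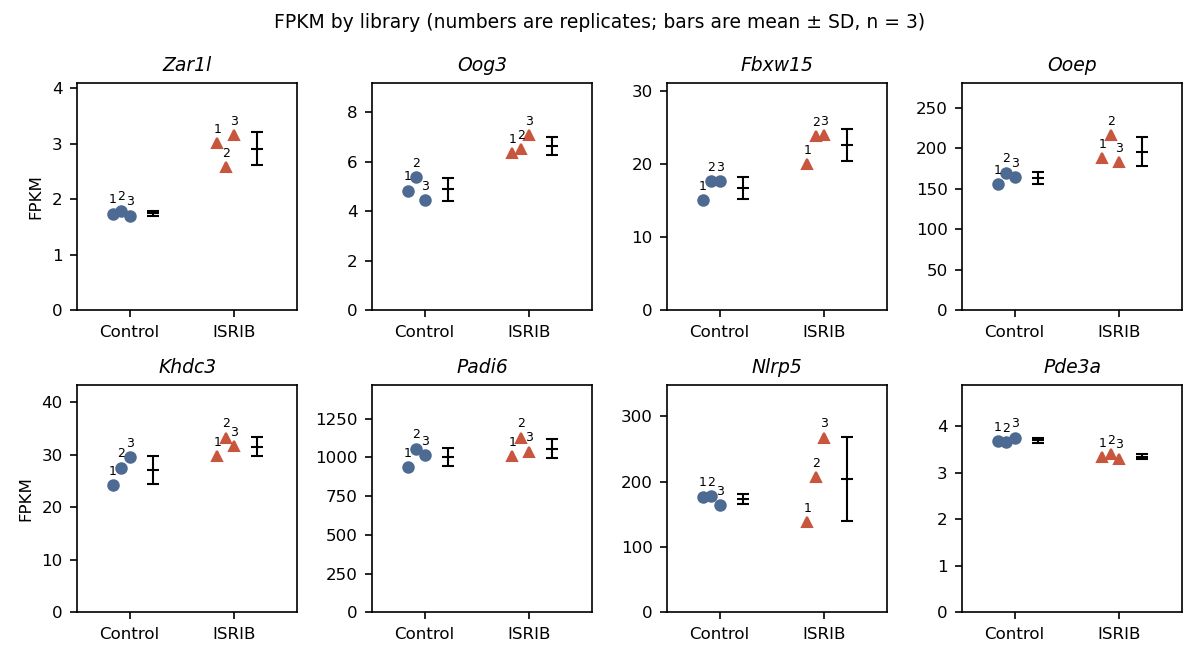
FPKM in each library for 8 genes, with the replicate number beside each point and the mean ± SD (n = 3) beside each group. Zar1l, Oog3, Fbxw15, Ooep and Khdc3 have every ISRIB library above every Control library, Pde3a has every one below, Padi6 overlaps, and the 3 ISRIB values of Nlrp5 spread from 138 to 267.

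The other NLRP genes are relatives of innate immune receptors that in rodents multiplied into families expressed in the oocyte. Of the 10 NLRP genes on the list, Nlrp5 included, 9 lie on chromosome 7. Without Nlrp5, 7 of the 9 were tested, with 5 differences above 0 and 2 below and a median of 0.07 (4 above 0 and a median of 0.02 after the rescaling to equal totals). Nlrp14, which is needed for fertility of the egg (chromosome 7, 107166990 to 107198102, plus strand), had 229, 270 and 245 FPKM in Control and 237, 278 and 243 in ISRIB. The groups covered almost the same range, and the log2 difference was 0.03 (95% interval −0.15 to 0.20, adjusted p = 0.896), or −0.03 both after the rescaling and without Control replicate 1, and −0.04 without ISRIB replicate 2. Nlrp4f, a component of the maternal complex on chromosome 13, had 66.4, 81.3 and 77.9 FPKM in Control and 73.1, 78.7 and 62.4 in ISRIB. Its lowest value was in ISRIB replicate 3, and the log2 difference was −0.08 (adjusted p = 0.750), or 0.02 without that library.

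Nlrp9b (chromosome 7, 19991465 to 20073306, plus strand) was the NLRP gene whose groups did not overlap. It had 4.03, 3.96 and 4.62 FPKM in Control and 4.66, 5.56 and 6.85 in ISRIB, from 512 to 901 reads. The lowest ISRIB value was just above the highest Control value, and the log2 difference was 0.38 (SE 0.129, adjusted p = 0.215). Nlrp4b, from the Nlrp4 group, measured 2.97, 4.80 and 2.64 FPKM in Control and 2.97, 4.59 and 5.74 in ISRIB. Control replicate 2 lay above 2 of the 3 ISRIB libraries, and the log2 difference was 0.31 (95% interval −0.27 to 0.89, adjusted p = 0.569). The other tested genes, Nlrp2, Nlrp4c and Nlrp9a, had log2 differences of 0.21, −0.13 and 0.07. Nlrp4c had 0.03 and Nlrp9a had −0.04 without ISRIB replicate 3. Nlrp4e at 0.334 to 1.29 FPKM and Nlrp9c at 0.108 to 0.511 were too low to be tested. Nlrp4e shares 36.9% of its 50-base windows with other genes, and Nlrp9a, Nlrp9b and Nlrp9c each share some with their nearest copies (6.54%, 6.22% and 4.99%).

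The 4 OAS1 genes of the list belong to the oligoadenylate synthetase family, whose better known members sense double-stranded RNA in virus-infected cells, and lie together on chromosome 5. All 4 had positive differences, with a median of 0.13 (0.08 after the length trend was removed). Oas1e (chromosome 5, 120786226 to 120795530, minus strand) had 28.3, 28.1 and 28.9 FPKM in Control and 29.9, 35.4 and 37.8 in ISRIB. All ISRIB libraries lay above a narrow Control range, replicate 1 only just, and the log2 difference was 0.26 (SE 0.0812, adjusted p = 0.187). Oas1c, the most abundant of the 4, measured 48.4, 53.5 and 46.8 FPKM in Control and 49.7, 55.9 and 50.3 in ISRIB. Its groups overlapped at a log2 difference of 0.07 (adjusted p = 0.658). Oas1d had 24.9, 29.9 and 24.6 FPKM in Control and 28.3, 31.7 and 28.3 in ISRIB, a log2 difference of 0.16 (adjusted p = 0.390). Oas1h had means of 27.1 ± 1.20 and 29.1 ± 1.68 FPKM (adjusted p = 0.416). In Control, Oas1c stood apart from the other 3, whose SD ranges overlapped. Copies of the family share 50-base windows, up to 11.3% of them for Oas1e.

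RNA storage and decay factors held both the largest difference of the list and several of the smallest. Zar1l, a zinc finger protein and relative of Zar1 that binds stored messages (chromosome 5, 150507055 to 150518164, minus strand), measured 1.74, 1.79 and 1.70 FPKM in Control and 3.01, 2.58 and 3.15 in ISRIB. The ISRIB libraries were all above the Control range, on 89 to 167 reads a library. The Control values varied by 2.65% (SD over mean), less than the counting error of 10.2% at their depth, so their spread understates the error. Means were 1.74 ± 0.0461 and 2.91 ± 0.300, a log2 difference of 0.60 (SE 0.0968, 95% interval 0.38 to 0.83, adjusted p = 0.0832). It was the only tested gene of the 40 with a log2 difference over 0.5 in either direction, kept 0.54 after the length trend was removed and ran from 0.55 to 0.68 when single libraries were left out. None of the 50-base windows of its longest GENCODE transcript, of 895 bases, occur in another gene. The FPKM imply a length of 1486 bases, so part of what was counted may lie outside these windows. Its sequence shown above held 2 NOBOX elements. In the whole windows, 8 of the 36 genes with an entry held TAATTG, Zar1l and Nlrp9a with 2. Their log2 differences were 0.60 for Zar1l, 0.41 for Oog3, 0.38 for Nlrp9b and 0.28 for Omt2b. The rest had 0.27 for Oog4, 0.26 for Ooep, 0.08 for Padi6 and 0.07 for Nlrp9a. The tested genes with a window and no TAATTG ran from −0.25 for Gpr3 to 0.42 for Fbxw15. A part of these letters in the differences was not tested.

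Zar1 itself, a founding maternal effect gene that anchors messages to the mitochondria-associated store of the oocyte (chromosome 5, 72576806 to 72581254, minus strand), was far more abundant, with 63.6, 81.4 and 76.2 FPKM in Control and 76.8, 87.2 and 89.3 in ISRIB. Control replicate 2 lay inside the ISRIB range, and the log2 difference was 0.20 (SE 0.0953, adjusted p = 0.342). Gm42668 shares 30.2% of its 50-base windows. Ybx2, the germ cell Y-box protein that coats stored messages (chromosome 11, 69935796 to 69941605, plus strand), had 128, 142 and 138 FPKM in Control and 138, 144 and 123 in ISRIB. Both the highest and the lowest value were ISRIB libraries, and the log2 difference was −0.02 (95% interval −0.17 to 0.14, adjusted p = 0.923), or 0.05 without ISRIB replicate 3 and 0.02 without Control replicate 2. Lsm14b, a component of the oocyte's RNA storage particles, measured 90.7, 100 and 98.9 FPKM in Control and 95.1, 99.5 and 90.8 in ISRIB. The groups covered the same range, at −0.02 (95% interval −0.15 to 0.10, adjusted p = 0.872), and 0.01 without Control replicate 2 or ISRIB replicate 3. The remaining 5 factors all overlapped between groups. Eif4enif1, the eIF4E-binding repressor 4E-T, and Cpeb1, which directs cytoplasmic polyadenylation, had log2 differences of −0.04 and −0.06 (−0.00 for Cpeb1 after the length trend was removed). Eif4enif1 had 0.01 without Control replicate 2 or ISRIB replicate 3. Patl2, Pabpc1l and Btg4, the last of which brings the CCR4-NOT deadenylase to maternal messages, had 0.20, 0.18 and 0.12 at levels under 6 FPKM.

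Of the 3 genes of meiotic arrest, 2 had differences below 0. Oocytes stay in prophase as long as cyclic AMP is high: Gpr3 codes for the receptor that keeps it high, Pde3a for the phosphodiesterase that breaks it down, and Mos for a kinase that acts in the later arrest at metaphase. Pde3a (chromosome 6, 141249269 to 141507448, plus strand) had 3.68, 3.65 and 3.75 FPKM in Control and 3.33, 3.40 and 3.30 in ISRIB. It was the gene of the 40 with every ISRIB library below every Control library, at a log2 difference of −0.13 (SE 0.0693, adjusted p = 0.404). Removal of the length trend left −0.05, at an implied length of 14348 bases, the longest on the list. Gm28523 overlaps its exons on the opposite strand by up to 741 bases. Gpr3 measured 2.22, 1.87 and 2.10 FPKM in Control and 1.92, 1.90 and 1.21 in ISRIB. ISRIB replicate 3 lay below the others on 94 to 173 reads a library, and the log2 difference of −0.25 (adjusted p = 0.449) was −0.08 without it. Mos had 6.25, 7.19 and 5.69 FPKM in Control and 5.39, 9.21 and 7.67 in ISRIB, with the lowest and the highest value both in ISRIB, and a log2 difference of 0.18 (adjusted p = 0.644), or 0.02 without ISRIB replicate 2.

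Among nuclear factors, Npm2, the oocyte nucleoplasmin that opens sperm chromatin (chromosome 14, 70647302 to 70659244, minus strand), had 82.4, 94.1 and 91.9 FPKM in Control and 96.4, 112 and 104 in ISRIB. All ISRIB libraries were above all Control libraries, and the log2 difference was 0.22 (SE 0.0702, adjusted p = 0.194). Obox5, an oocyte homeobox gene, had 1.42, 1.27 and 1.25 FPKM in Control and 1.65, 1.59 and 1.52 in ISRIB. Its groups did not overlap either, on 63 to 79 reads, at a log2 difference of 0.21 (adjusted p = 0.348). Kpna7, the importin alpha of the egg, had 9.32, 10.8 and 9.40 FPKM in Control and 9.01, 10.1 and 11.6 in ISRIB, which overlapped at 0.05 (adjusted p = 0.834), or −0.04 without ISRIB replicate 3. H1f8, the newer symbol of the oocyte linker histone listed as H1foo, stood outside the list by symbol. It had 36.6, 40.5 and 39.5 FPKM in Control and 39.9, 49.7 and 47.7 in ISRIB, which overlapped at 0.23 (adjusted p = 0.238).

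Among the remaining oocyte transcripts, 8 of 9 tested genes had positive differences (7 after the length trend was removed or after the rescaling) and 4 had all ISRIB above all Control libraries, as 10.8% of all tested genes did. Fbxw15, an F-box protein of an oocyte-expressed cluster (chromosome 9, 109552602 to 109568262, minus strand), had 15.0, 17.6 and 17.6 FPKM in Control and 20.0, 23.8 and 23.9 in ISRIB. In both groups replicate 1 was the lowest, and the groups stood clear of each other. Its log2 difference was 0.42 (SE 0.0890, adjusted p = 0.106), and 0.37 after the length trend was removed. Oog3, an oogenesin with leucine-rich repeats (chromosome 4, 144157557 to 144162663, minus strand), had 4.82, 5.38 and 4.44 FPKM in Control and 6.34, 6.51 and 7.06 in ISRIB. All ISRIB libraries lay above all Control libraries, and the log2 difference was 0.41 (SE 0.0835, adjusted p = 0.0995). Gm4350 shares 18.9% of its 50-base windows.

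Dppa5a, a KH-domain protein of pluripotent and germ cells (chromosome 9, 78367052 to 78368177, minus strand), had 85.7, 91.4 and 85.0 FPKM in Control and 96.8, 102 and 97.8 in ISRIB. All ISRIB libraries lay above all Control libraries at a log2 difference of 0.18 (SE 0.0450, adjusted p = 0.126). At 649 bases it was the shortest gene on the list, its value after the length trend was removed was 0.05, and 38.6% of its 50-base windows occur in other genes. Uchl1, an abundant deubiquitinating enzyme of oocytes and neurons (chromosome 5, 66676091 to 66687234, plus strand), had 524, 576 and 571 FPKM in Control and 546, 610 and 537 in ISRIB. The groups overlapped, with a log2 difference of 0.02 (95% interval −0.13 to 0.16, adjusted p = 0.905), −0.06 after the length trend was removed and −0.03 after the rescaling. It was −0.02 without Control replicate 1 and −0.04 without ISRIB replicate 2. The others with a test were named after their values were seen. Rfpl4, a RING finger protein, had a log2 difference of 0.25 (adjusted p = 0.238), and E330034G19Rik had 0.15 with groups that did not overlap (adjusted p = 0.333). Oog4 had 0.27 and Omt2b 0.28, while Omt2a, which shares 29.5% of its windows with Omt2b, had −0.20. Omt2a, Omt2b, Dppa5a and Ooep lie within 66.8 kb of each other on chromosome 9. Oog1, at 0.163 to 1.25 FPKM, was not tested, and 88.6% of its windows occur in other genes.

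The libraries did not line up evenly for these genes. Control replicate 1 was the lowest of the Controls for 20 of the 40 and replicate 2 the highest for 26. In ISRIB, replicate 1 was the lowest for 23 and replicate 2 the highest for 22. Over all tested genes the same libraries held those places for 34.0%, 32.4%, 38.1% and 34.5%. The mean log2(FPKM + 0.5) of the 40 genes was 4.09, 4.23 and 4.16 in Control and 4.20, 4.38 and 4.32 in ISRIB, so that ISRIB replicate 1 lay within the Control range and the other 2 ISRIB libraries above it.

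Of the 14 genes taken as germ cell markers, 3 had differences above 0 and 11 below. Their median was −0.08 (−0.09 after the length trend was removed). Their summed level was 524 to 572 FPKM in Control and 452 to 539 in ISRIB. Some of these markers may themselves change with the stage of the oocyte. Ddx4, the germ cell RNA helicase, was at 16.0, 16.2 and 15.9 FPKM in Control and 16.2, 16.6 and 15.8 in ISRIB. Every ISRIB library lay below every Control library for 3 of the 14 markers, against 12.0% of all tested genes. At an unadjusted limma p under 0.05, 3 were lower, against 7.73% of all tested genes. Tdrd9, a helicase of the germ line, had a difference of −0.40 (adjusted p = 0.121) and Kit, the receptor on the oocyte surface, −0.26 (adjusted p = 0.145), both among those with no overlap, and Figla had 0.11. The mean log2 level of the markers was 4.63, 4.74 and 4.66 in Control and 4.63, 4.67 and 4.42 in ISRIB. Set against it, the 40 genes were at −0.54, −0.50 and −0.50 in Control and −0.43, −0.29 and −0.10 in ISRIB. On that difference all ISRIB libraries lay above all Control libraries, and ISRIB replicate 3, the highest, had the lowest marker level of the 6. The parts of germ cell number and of oocyte stage in the results were not tested, and a difference from these markers cannot tell them apart.

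**Figure D4:**
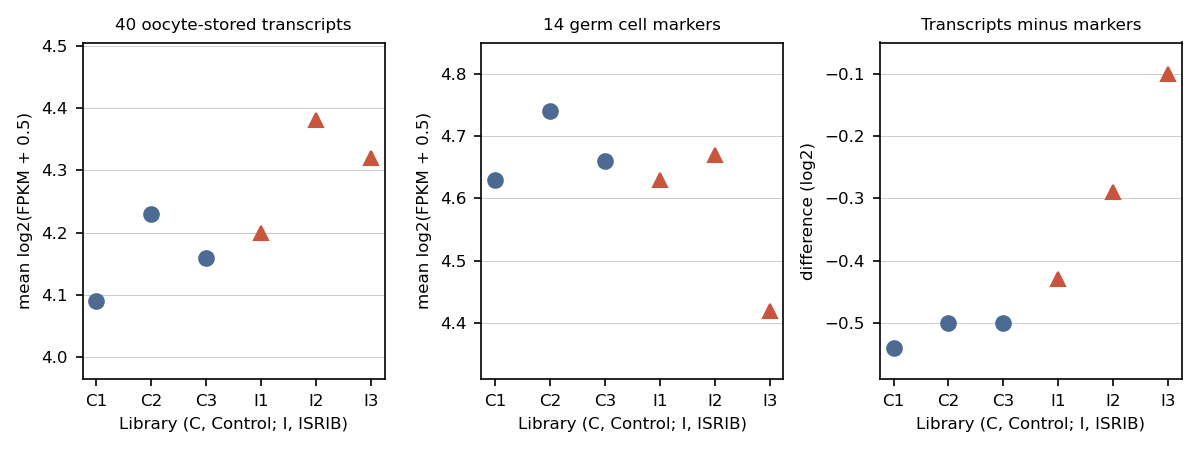
Mean log2(FPKM + 0.5) in each library of the 40 tested genes (left) and of 14 germ cell markers (middle), and their difference (right), on axes of equal span that do not start at 0. In the right panel the ISRIB libraries lie from −0.43 to −0.10, above the Control libraries at −0.54 to −0.50.

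Marker lists of other cell types had medians of 0.05 for granulosa cells (6 of 11 above 0) and 0.02 for stroma and theca (5 of 10). They were −0.20 for endothelium (0 of 8) and −0.09 for pericytes and smooth muscle (2 of 7). Surface epithelium had −0.14 (1 of 8) and immune cells −0.12 (1 of 7). Of all tested genes, 51.8% were above 0. No marker on these lists was at 0 in all libraries. With all ISRIB libraries below all Control libraries were 5 of the 8 endothelial markers, against 12.0% of all tested genes. The same held for 3 of 7 immune, 2 of 7 pericyte and smooth muscle, and 2 of 10 stroma and theca markers. It held for 1 of 11 granulosa and 1 of 8 surface epithelium markers. The summed granulosa level was 758 to 830 FPKM in Control and 778 to 908 in ISRIB, and the summed endothelial level was 153 to 168 and 129 to 145. Inha, the inhibin subunit of granulosa cells, averaged 99.4 ± 16.8 FPKM in Control and 137 ± 31.0 in ISRIB, with a difference of 0.45 (adjusted p = 0.236). Kitl, the granulosa ligand of Kit, had −0.32 with every ISRIB library below every Control library (adjusted p = 0.245), Nr5a2 had 0.18 and Amhr2 −0.12. No marker of these lists passed by limma. By voom 2 of the 7 pericyte and smooth muscle markers passed, where 0.929% of all tested genes did, and 0 on the other lists. These were Pdgfrb (voom adjusted p = 0.0191) and Cspg4 (voom adjusted p = 0.0447), with limma log2 differences of −0.33 and −0.30. The part of these cell types in the results was not tested.

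Gene length moved with the comparison. Over all 12922 tested genes the difference went down with length, with a Spearman rho of −0.36, and over the 40 genes it was also −0.36. Genes do not count as independent replicates in such a correlation. The 40 were shorter than most, with a median implied length of 2257 bases against 3549. Among the 17 shorter than 2000 bases the median log2 difference was 0.21 and 16 were above 0, where all tested genes of that length had a median of 0.08 and 73.5% above 0. Among the 23 longer ones the median was 0.07 with 65.2% above 0, beside −0.01 and 45.3%. With the length trend taken out of every library, the 40 had a median of 0.11 beside 0.00 over all genes, 30 were above 0 (75.0%, against 50.3%), 8 had an unadjusted p under 0.05 and were higher (20.0%, against 6.41%) and 0 were lower (against 6.72%). All ISRIB libraries lay above all Control libraries for 7 (17.5%, against 9.61%). Rescaling to equal FPKM totals set the median of all genes to −0.04. On that scale the 40 had a median of 0.12, 29 above 0 (36.0% of all genes) 7 with all ISRIB above all Control libraries (5.51% of all genes) and 2 with all below (21.0%). At an unadjusted p under 0.05, 9 were then higher (4.68% of all genes) and 1 lower (14.9%), and 0 passed the adjusted p (0.147%).

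**Figure D5:**
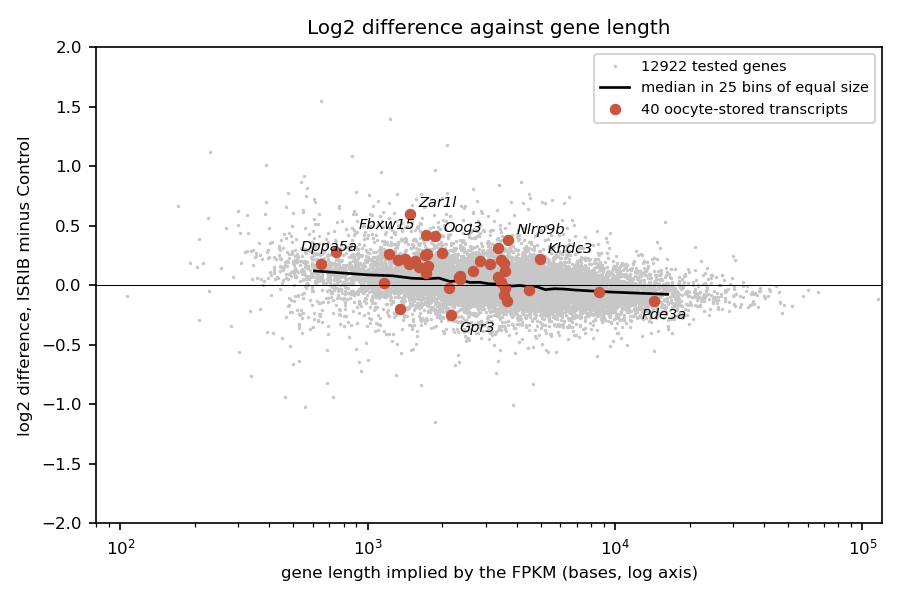
Log2 difference of ISRIB minus Control against the gene length implied by the FPKM (log axis), with all 12922 tested genes in grey, their median in bins of equal gene number as a line and the 40 genes in red. The line falls from left to right, and Zar1l, Fbxw15, Oog3 and Nlrp9b lie well above it at 0.60, 0.42, 0.41 and 0.38.

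Other genes of the same processes, from lists that hold none of the 43, were counted in the same way. Of 30 tested further maternal effect genes, 15 had differences above 0 and 15 below, with a median of −0.00. After the length trend was removed 14 were above 0, and 11 after the rescaling (50.3% and 36.0% of all tested genes). The ISRIB libraries all lay above the Control libraries for 3 (10.8% of all tested genes) and all below for 4 (12.0%). Npm1, the somatic relative of Npm2, had 311 ± 6.66 and 352 ± 11.4 FPKM and a difference of 0.18 (adjusted p = 0.119), Zfp57, which guards imprints, had 0.19 (adjusted p = 0.203), Ago2, the small RNA slicer, had −0.33 (adjusted p = 0.167) and Smarca4, a chromatin remodeller, had −0.13 (adjusted p = 0.242). Of 45 further genes of RNA storage, deadenylation and polyadenylation, 22 were above 0 and 23 below, with a median of −0.00. This split moved with the scaling. After the length trend was removed 32 were above 0, with a median of 0.03, and after the rescaling 13, with a median of −0.05. Here 1 gene had all ISRIB above all Control libraries and 5 had all below. Cnot1, the scaffold of the CCR4-NOT deadenylase, had 49.1 ± 2.13 and 38.7 ± 2.30 FPKM, a log2 difference of −0.34 (adjusted p = 0.0876), and its catalytic subunit Cnot7 had 20.4 ± 0.533 and 22.8 ± 0.641, a log2 difference of 0.15 (adjusted p = 0.178). Eif4e1b, the oocyte cap-binding protein, had 0.24 (adjusted p = 0.303) and Cpeb3 −0.21 (adjusted p = 0.249). Of 30 genes of meiotic arrest and resumption, 18 were above 0 (14 after the length trend was removed and 10 after the rescaling). In this list 3 genes had all ISRIB above all Control libraries and 4 had all below. Gnas, the G protein subunit through which Gpr3 signals, had a log2 difference of 0.15 (adjusted p = 0.126) and Fbxo5, the Emi1 inhibitor of the anaphase-promoting complex, 0.25 (adjusted p = 0.192), while Fzr1, the activator of that complex in prophase, had −0.13 (adjusted p = 0.293). By limma, 0 genes of these 3 lists passed over all genes tested. With voom 1 passed, Cnot1 of the RNA storage list (voom adjusted p = 0.0259), where 0.929% of all tested genes did. At an unadjusted limma p under 0.05, 8.71% of all tested genes were higher and 7.73% lower. There were 4 higher and 3 lower further maternal effect genes, 2 and 2 in the RNA storage list and 3 and 2 in the meiotic list.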

How the data were processed

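Total RNA of cultured mouse ovary was sequenced in 3 Control and 3 ISRIB libraries, grouped by their titles. The table the authors deposited holds FPKM of 26329 genes in 6 columns. Per the submitters' processing notes, fastp, HISAT2, HTSeq, R 3.2.0, DESeq2 and build mm10 were used. No source used here gives their roles, the annotation or the strand setting, so antisense and overlapping genes may not be told apart.

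FPKM are whole reads times a library factor and a gene factor. All genes came out whole (100.0%, tolerance 0.01 read), which gave reads, library totals and implied gene lengths. On log2(FPKM + 0.5), the 12922 genes that averaged 1 FPKM or more were tested with limma 3.58.1 in R 4.3.3 (moderated two-sided test with trend; Benjamini-Hochberg adjustment, threshold 0.05), a scale that understates fold changes of low genes. The script was tested on simulated data. Members and lists were chosen with earlier results of these data known. In each role group the 2 most abundant genes and the 2 with the smallest p got values by library, and in each list of other genes 2 were named per direction, by p, of which 1 is not reported here. Positions and shared 50-base windows came from GENCODE M21 (GRCm38, the build of mm10), matched by symbol for 44 of 45 genes. Alternatives were other pseudocounts, filters and scalings, removal of a loess trend on length (span 0.5), voom on recovered reads, a replicate block and leaving out each library. Python 3.11.15, pandas 2.3.3 and matplotlib 3.10.9 made tables and figures.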

Additional observations from a re-analysis of the deposited data

How the results depend on the processing

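Under the 15 alternatives, 0 of the tested genes of the list passed an adjusted p of 0.05. Over all genes, 8 passed with a mean FPKM of at least 5, 19 after TPM rescaling, 120 with voom on recovered reads and 11 with the replicate block. Leaving out single libraries gave 0 in each case (at an unadjusted p under 0.05, 2125 genes with all libraries). Over all tested genes, the deviations of same-numbered libraries from their group means correlated at −0.19, −0.0909 and 0.192. For the 40 genes the mean log2 level was lowest in replicate 1 and highest in replicate 2 of both groups. Whether the replicate numbers pair the libraries was therefore not settled. With the replicate block, 15 of the 40 were higher at an unadjusted limma p under 0.05 (9.05% of all genes) and 0 lower (888 of all 12922 genes). The number of list genes above 0 was 20 of the 25 left with a mean FPKM of at least 5. The median of those 25 was 0.15. For the 40 genes the median was 0.11 after the length trend was removed, and 0.08 to 0.20 when single libraries were left out. Leaving out single libraries gave 29 to 34 of the 40 above 0 and 13 to 21 with no overlap between groups (12 with all libraries). Over all genes the share with no overlap was 22.8% with all libraries and 30.3% to 37.8% with 1 left out. Of the 40 genes, 30 kept their sign under every alternative. For the other 10, log2 differences when single libraries were left out ran from −0.03 to 0.44 for Nlrp5, −0.24 to 0.03 for Nlrp4c, −0.16 to 0.02 for Nlrp4f, −0.04 to 0.18 for Nlrp9a, −0.04 to 0.09 for Nlrp14, −0.06 to 0.05 for Ybx2, −0.07 to 0.01 for Eif4enif1 and Lsm14b, −0.04 to 0.14 for Kpna7 and −0.04 to 0.05 for Uchl1. TPM rescaling gave −0.03 for Nlrp14 and Uchl1, and removal of the length trend −0.06 for Uchl1. The cause of these changes was not tested. Values on fewer than about 100 reads a library, as for Obox5, Omt2a and Zar1l in Control, are limited by counting.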
